A study of Homo sapiens with 20 samples.

Results

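SA1 and SA2 cohesin sites of RPE-1 cells were compared as peak lists. On the CHM13 v1.0 assembly the SA1 list held 10910 peaks and the SA2 list 9579, which is 20489 of the 191415 peaks in the 6 lists of the study on that assembly. A peak that overlapped a peak of the other list by at least 1 bp was called shared, and the rest were called SA1-only or SA2-only. The study mapped cohesin in 2 human lines by chromatin immunoprecipitation and sequencing (ChIP-seq) with antibodies against RAD21, SA1 and SA2. Its aim was to learn where cohesin binds around human centromeres. RPE-1 is a human retinal pigment epithelial line that carries telomerase (hTERT), with 2 libraries for each antibody and 2 for input chromatin. CHM13 is an hTERT line from a hydatidiform mole, with 3 libraries of each kind, and the CHM13 v1.0 assembly is built from its genome. The labels name no treatment or engineered allele, and the RPE-1 cells were grown to near confluence before formaldehyde fixation. Each list pooled the replicates of its antibody and holds positions alone, so the lists gave no value per library and no peak height, and no test across replicates was made. Intervals below are 95% Wilson intervals of a share, or Newcombe intervals of a difference between shares, unless another kind is named. All cover counting error alone.

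Cohesin is a ring of SMC1A, SMC3 and RAD21 that holds sister chromatids together and forms chromatin loops. Each ring carries either SA1 or SA2, also called STAG1 and STAG2, which dock on RAD21. Both forms are known to stop at sites bound by CTCF. SA1 is known for a part in cohesion at telomeres and SA2 for a part at centromeres. A peak of SA1 or SA2 is therefore read here together with the RAD21 list of the same cells, which came from a separate antibody and separate libraries.

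Genes and bases were read on hg38, for which the same study gave lists of 10724 SA1 and 6416 SA2 peaks. The 150 bases at the centre of a peak are shown for the 2 widest peaks of each class at the start of a protein-coding gene, and for the locus that the study used for ChIP-PCR, to show how far the base composition of the sites ranged. They are given on the plus strand of hg38, and capitals mark a match to GGGCGGG, the letters bound by the Sp and KLF factors.
shared DIP2B, chr12:50505030-50505179: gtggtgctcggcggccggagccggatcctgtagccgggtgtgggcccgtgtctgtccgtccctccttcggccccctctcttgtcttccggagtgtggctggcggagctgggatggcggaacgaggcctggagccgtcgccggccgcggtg
shared MYOF, chr10:93482502-93482651: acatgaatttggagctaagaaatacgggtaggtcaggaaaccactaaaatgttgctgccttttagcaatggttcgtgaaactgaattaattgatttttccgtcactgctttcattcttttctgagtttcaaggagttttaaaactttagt
SA1-only TENT5A, chr6:81753341-81753490: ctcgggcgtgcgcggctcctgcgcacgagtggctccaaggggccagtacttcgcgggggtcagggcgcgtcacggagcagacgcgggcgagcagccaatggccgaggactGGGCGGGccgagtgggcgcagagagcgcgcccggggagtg
SA1-only ACVR2A, chr2:147843780-147843929: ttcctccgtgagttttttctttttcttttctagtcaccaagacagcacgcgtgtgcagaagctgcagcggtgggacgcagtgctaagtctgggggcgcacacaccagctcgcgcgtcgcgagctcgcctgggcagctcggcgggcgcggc
SA2-only OTOS, chr2:240143834-240143983: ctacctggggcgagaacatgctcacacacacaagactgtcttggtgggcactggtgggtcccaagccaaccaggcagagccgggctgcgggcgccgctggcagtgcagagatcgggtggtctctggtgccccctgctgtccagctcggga
SA2-only OLFML3, chr1:113978951-113979100: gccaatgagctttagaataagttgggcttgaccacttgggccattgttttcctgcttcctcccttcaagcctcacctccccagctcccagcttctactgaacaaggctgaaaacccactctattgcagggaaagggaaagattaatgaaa
ChIP-PCR locus, chr20:1503742-1503891: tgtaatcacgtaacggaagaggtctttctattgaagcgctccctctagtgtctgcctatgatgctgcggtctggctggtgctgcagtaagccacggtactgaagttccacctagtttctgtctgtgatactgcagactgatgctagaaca
The GC content of the 300-bp window around these peaks was 75.7% at DIP2B, 37.3% at MYOF, 71.7% at TENT5A, 60.7% at ACVR2A, 66.7% at OTOS and 46.3% at OLFML3. A peak of each of the 6 lists covered the ChIP-PCR locus, which lies outside annotated genes, with widths of 385 bp for RPE-1 SA1, 363 bp for RPE-1 SA2 and 479 bp for RPE-1 RAD21.

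The widest peak at a gene start that held the core letters of the CTCF motif is shown for each class, chosen after the values were seen. The core was searched on both strands as CC, any 3 bases, and then AGGGGGC or AGGTGGC or AGATGGC or AGAGGGC, and capitals mark it.
shared AQP6, chr12:49967249-49967318: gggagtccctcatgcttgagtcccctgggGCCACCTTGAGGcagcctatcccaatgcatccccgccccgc
SA1-only KMT2B, chr19:35716860-35716929: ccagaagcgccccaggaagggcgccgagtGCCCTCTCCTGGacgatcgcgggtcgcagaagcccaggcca
SA2-only HINT3, chr6:125956738-125956807: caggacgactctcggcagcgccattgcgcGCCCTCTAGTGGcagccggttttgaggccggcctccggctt
In these examples the capitals hold the reverse complement of the core. The match lay 82 bp before the centre of the peak at AQP6, an aquaporin gene, 94 bp before it at KMT2B, a histone methyltransferase gene, and 7 bp after it at HINT3.

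Most sites of the RPE-1 subunits were common to both. Of the SA1 peaks, 7399 of 10910 (67.8%, interval 66.9 to 68.7) overlapped an SA2 peak, and of the SA2 peaks 7401 of 9579 (77.3%, 76.4 to 78.1) overlapped an SA1 peak. That left 3511 SA1-only and 2178 SA2-only peaks. After merging, the 13088 loci fell into 56.5% with both subunits, 26.8% with SA1 alone and 16.6% with SA2 alone. In CHM13 cells the balance was the opposite: 87.3% of SA1 peaks were shared and 73.9% of SA2 peaks, in longer lists of 36986 and 43746 peaks. A locus was kept if found in 2 of 3 replicates in CHM13 cells but in both replicates in RPE-1 cells. By the read totals that the paper lists, the CHM13 SA1 and SA2 libraries were also sequenced more deeply than those of RPE-1 cells. The part of the replicate rule and of depth in the shares was not tested. On hg38, 50.2% of RPE-1 SA1 peaks and 84.0% of SA2 peaks were shared, and the classes held 5386, 5338 and 1028 loci.

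The hg38 and CHM13 v1.0 lists of SA2 were not the same length, and this touches every result on genes, GC content and motifs below. The hg38 list was 67.0% as long as the CHM13 v1.0 list for SA2, against 98.3% for SA1 and 93.3% for RAD21. The missing SA2 peaks were not spread evenly, since the hg38 count was 54.2% of the CHM13 v1.0 count on chromosome 4 and 86.3% on chromosome 19. Across the 22 autosomes this percentage rose with the GC content of the chromosome, with a Spearman coefficient of 0.89. The chromosomes share their libraries, and the value is a description. Read totals of the libraries were not used in these values, and their part in the list lengths was not tested.

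By position, the split between shared and unshared peaks was clean. Positions alone do not show whether the other subunit was absent at an unshared site. The smallest overlap of a shared pair was 231 bp on CHM13 v1.0, and the nearest peak of the other subunit to any SA1-only peak was 242 bp away and to any SA2-only peak 266 bp away. No unshared peak had one within 200 bp, and 40 SA1-only and 10 SA2-only peaks had one within 1 kb. The median distance to the nearest peak of the other subunit was 86657 bp for SA1-only and 69769 bp for SA2-only peaks.

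Shared peaks were wider than unshared ones. Shared sites had a median width of 467 bp in the SA1 list and 416 bp in the SA2 list. SA1-only peaks had a median of 407 bp, with a middle range (quartiles) of 358 to 462 bp, and SA2-only peaks one of 378 bp, with a middle range of 337 to 428 bp. The SA2-only median thus differed from the SA1-only median by -29.0 bp (-34.0 to -24.8), an interval that combines binomial rank limits of both medians. The whole SA2 list had the lower median as well, 408 bp against 448 bp. The lists hold no peak heights, and whether width follows the strength of a peak was not tested.

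RAD21 was found at most sites of all classes, and most often at shared ones. Of the shared SA1 peaks 85.6% (84.8 to 86.4) overlapped an RPE-1 RAD21 peak, against 64.1% (62.5 to 65.7) of SA1-only and 70.0% (68.0 to 71.9) of SA2-only peaks. The shared class was above both others on 23 of 23 chromosomes. SA2-only peaks carried RAD21 more often than SA1-only peaks by 5.86 percentage points (3.35 to 8.34), with the higher share on 15 of 23 chromosomes. On hg38 that difference was 9.20 points (6.23 to 12).

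The order of the unshared classes depended on width. Among peaks below 300 bp, 29.9% of SA1-only and 57.1% of SA2-only peaks overlapped RAD21. From 300 to 400 bp the shares were 54.6% and 71.2%, and from 400 to 500 bp they were 70.7% and 69.7%. At 500 bp or more the order turned, with 84.8% (81.3 to 87.8) of SA1-only and 72.7% (66.0 to 78.5) of SA2-only peaks. RAD21 overlap rose with width in the SA1-only class across all 4 bins, while the SA2-only class stayed between 69.7% and 72.7% in the 3 wider bins.

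**Figure D1:**
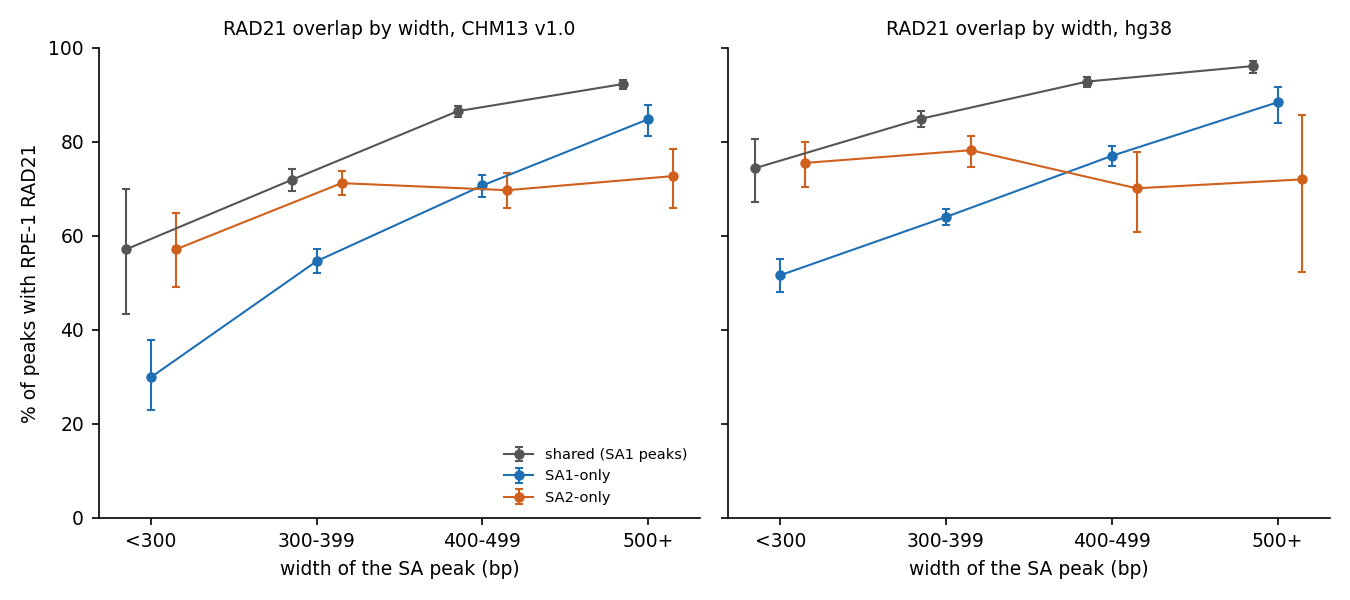
Share of RPE-1 SA peaks that overlap an RPE-1 RAD21 peak (y axis, %) by width of the SA peak (x axis, bp) for shared SA1 peaks (grey), SA1-only peaks (blue) and SA2-only peaks (orange), on CHM13 v1.0 (left) and hg38 (right), with 95% Wilson intervals as bars. On CHM13 v1.0 the SA1-only points climb from 29.9% to 84.8%, and the SA2-only points lie above them in the narrow bins and below them in the widest.

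Base composition differed between the classes on hg38, where the SA2 list was 67.0% as long as on CHM13 v1.0. GC content was not read on CHM13 v1.0, and the part of the shorter list in these differences was not tested. The 300-bp windows around hg38 peaks had a median GC content of 47.0% for shared, 42.0% for SA1-only and 50.7% for SA2-only peaks, against 40.0% for all 300-bp windows of chromosomes 1 to 22 and X. Of the SA1-only windows 39.5% were below 40% GC, against 20.7% of SA2-only windows. At the other end 5.26% of SA1-only and 21.7% of SA2-only windows had a GC content of 60% or more. Windows with 10 or more CpG dinucleotides, as in CpG islands, made up 20.7% of shared, 9.59% of SA1-only and 28.6% of SA2-only windows, and 4.43% of all windows. The ratio of SA2-only to SA1-only loci rose from 0.101 below 40% GC to 0.123, 0.419 and 0.794 in the bins from 40, 50 and 60%.

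RAD21 overlap followed base composition as well. SA1-only peaks with RAD21 had a median GC content of 45.3% and those without it one of 36.3%. For SA2-only peaks the medians were 54.0% and 37.3%, and for shared peaks 48.3% and 35.7%. Below 40% GC, RAD21 was found at 61.8% of shared, 34.7% of SA1-only and 23.5% of SA2-only peaks. At 60% GC or more it was found at 776 of 776 shared, 280 of 281 SA1-only and 218 of 223 SA2-only peaks.

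Within bins of GC content the difference in RAD21 between the unshared classes had the other sign. SA2-only minus SA1-only came to -11.2 points (-16.8 to -4.74) below 40% GC, -6.65 points (-12.3 to -1.69) from 40 to 50%, -2.54 points (-5.25 to -0.660) from 50 to 60%, and -1.89 points (-4.80 to 0.188) at 60% or more. So SA2-only peaks overlapped RAD21 more often when all peaks were pooled and less often in each of the 4 bins, where the interval of the last bin includes 0. The bins were drawn on hg38, since GC content could be read from that sequence, and were added after the data were seen. Whether the composition of the sites or of the libraries lies behind these shares cannot be told apart in pooled lists.

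**Figure D2:**
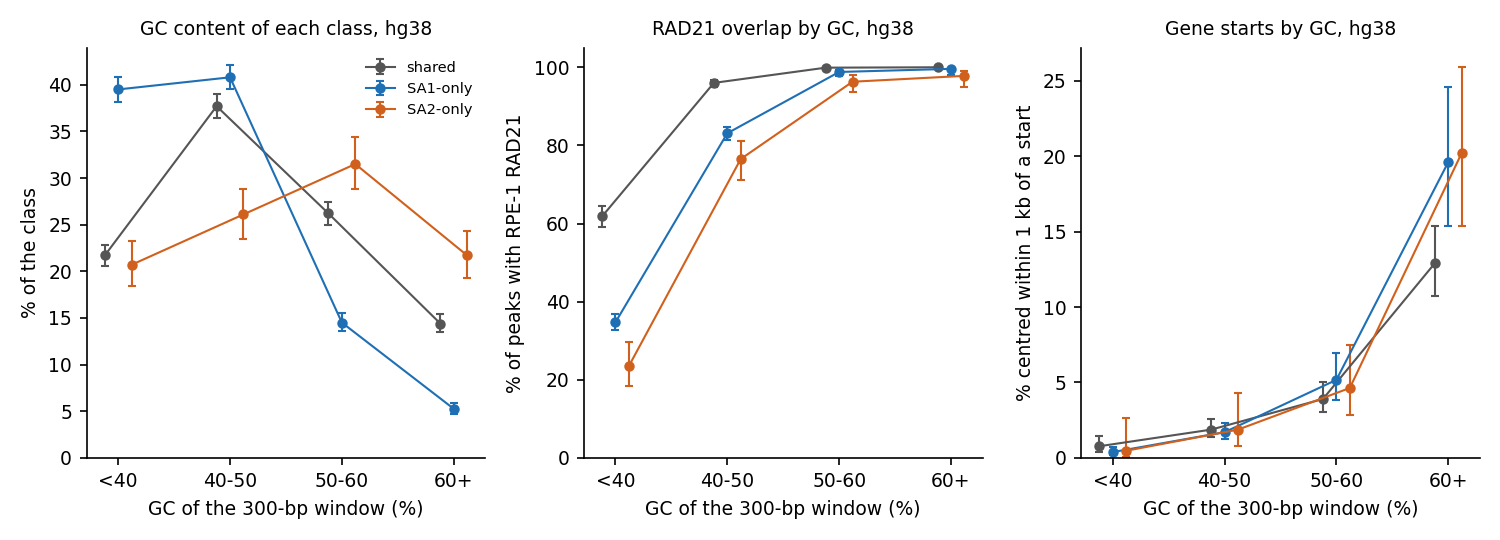
RPE-1 peaks on hg38 by GC content of the 300-bp window (x axis, %): share of each class in the bin (left), share with an RPE-1 RAD21 peak (middle) and share centred within 1 kb of a protein-coding gene start (right), all on the y axes in %, for shared (grey), SA1-only (blue) and SA2-only (orange) loci with 95% Wilson intervals. SA2-only loci peak at 50 to 60% GC with 31.5% of the class, RAD21 overlap climbs with GC in all 3 classes, and the gene-start shares of the unshared classes lie within each other's intervals in all 4 bins.

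SA2-only peaks lay nearer to the starts of protein-coding genes than SA1-only peaks. On hg38, 66 of 1028 SA2-only peaks (6.42%, 5.08 to 8.09) were centred within 1 kb of the start of a protein-coding gene, against 202 of 5386 shared (3.75%, 3.28 to 4.29) and 140 of 5338 SA1-only peaks (2.62%, 2.23 to 3.09). All 300-bp windows gave 1.26%. The difference between the unshared classes was 3.80 points (2.38 to 5.51). The median distance to a start was 31.4 kb for SA2-only, 36.8 kb for shared and 47.6 kb for SA1-only peaks. More than 200 kb away, or on a sequence without a protein-coding gene, lay 13.6%, 11.5% and 16.6% of these classes. Such sequences held 12 SA2-only, 14 shared and 0 SA1-only peaks, which the medians leave out.

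This difference at gene starts was not seen within bins of GC content. SA2-only minus SA1-only was 0.0896 points (-0.444 to 2.24) below 40% GC, 0.166 points (-1.07 to 2.64) from 40 to 50%, -0.538 points (-3.08 to 2.63) from 50 to 60% and 0.606 points (-6.31 to 7.74) at 60% or more. In the last bin 45 of 223 SA2-only and 55 of 281 SA1-only peaks were at starts. The intervals of the bins from 50% upward still admit differences of several points in either direction. By annotation, exons held 7.39% of SA2-only, 5.98% of shared and 5.19% of SA1-only peak centres, introns held 38.6%, 39.1% and 42.8%, and 54.0%, 54.9% and 52.0% were intergenic.

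At gene starts RAD21 was nearly always present. It was found at 97.5% of shared, 92.9% of SA1-only and 92.4% of SA2-only peaks within 1 kb of a start, and away from starts at 89.9%, 66.5% and 75.3%. The widest shared peaks at starts belonged to DIP2B (900 bp), MYOF, the membrane repair protein myoferlin (873 bp), FAT1, a large atypical cadherin (827 bp), CFAP68 (786 bp), AQP6 (747 bp), THBS1, the matrix glycoprotein thrombospondin (746 bp), PCDHGA11, a clustered protocadherin (734 bp), and COL1A1, a fibrillar collagen chain (650 bp). The widest SA1-only peaks at starts were at TENT5A, a non-canonical poly(A) polymerase (1737 bp), ACVR2A, an activin receptor (784 bp), TIMM22, a mitochondrial import protein (692 bp), EFNB2, an ephrin ligand (682 bp), KMT2B (645 bp), INSYN2B (642 bp), DTWD2 (599 bp) and ALG10, a glycosyltransferase (595 bp). Those of the SA2-only class were at OTOS (437 bp), OLFML3 (418 bp), HINT3 (416 bp), INKA1 (401 bp), ZNF491, a zinc finger gene (398 bp), the gene model ENSG00000248235 (396 bp), IL6, an inflammatory cytokine (387 bp), and HAX1 (386 bp). All of these 24 peaks overlapped RAD21 in RPE-1 cells. In CHM13 cells all 24 overlapped an SA2 peak and 23 an SA1 peak, the exception being ACVR2A.

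Some long genes held several unshared peaks of 1 subunit on hg38, where 5338 of 10724 SA1 peaks were SA1-only. Counts were not set against gene length, and these genes were not looked up on CHM13 v1.0. HDAC9, a histone deacetylase gene of 915 kb, held 7 SA1-only peaks and no shared or SA2-only peak. SEMA3D, a semaphorin of 192 kb, held 5 SA1-only peaks and no other. PRKCH, a protein kinase C gene, had 6 SA1-only and 1 shared peak, and ROBO1, the receptor for SLIT guidance cues, had 6 SA1-only and 3 shared peaks. ARHGAP26 and DST, the cytolinker dystonin, each had 5 SA1-only and 1 shared peak, with 1 SA2-only peak besides in DST. Shared peaks were most numerous in KALRN (7 shared and 1 SA1-only), KCNMA1, a potassium channel (5 and 1), NTM, a neural adhesion protein (5 and 2), and PDE4D, a cyclic AMP phosphodiesterase of 1550 kb (5 and 4, with 1 SA2-only peak). NAV1 had 4 shared peaks and none of the unshared classes. Outside chromosome X no protein-coding gene had more than 2 SA2-only peaks. The shortest of those with 2 and no other peak were MTFMT, a mitochondrial tRNA formyltransferase, FLYWCH1, TNK2, a tyrosine kinase, ZNF627 and STK38L, a kinase of the NDR family.

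Gene groups were described by how many members had a peak centred in the gene or within 5 kb of it, beside the share of all 20033 protein-coding genes, which was 15.0% for shared, 14.0% for SA1-only and 3.58% for SA2-only peaks. Of 17 genes of cohesin and its regulators, 3 had a shared peak (PDS5A, SMC3 and STAG1), 2 an SA1-only peak (STAG1 and STAG3) and 2 an SA2-only peak (PDS5B and STAG2). The SA1-only peaks of STAG1 were 2, beside 1 shared peak, and STAG2 held 1 SA2-only peak and no other. With 17 genes whose median length was 71.6 kb, against 27.5 kb for all protein-coding genes, these counts are small and long genes have more room for a peak.

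Extracellular matrix and actin genes held shared and SA1-only peaks more often than the background, and the classes were not tested against each other. Of 24 genes, 10 had a shared peak, among them COL1A1, COL1A2, SPARC and THBS1, and 11 had an SA1-only peak, among them TGFBI, CALD1, TPM1, MYH9 and ITGA5. The 2 with an SA2-only peak were COL4A2 and COL5A1, genes of 207 and 203 kb, and this count is too small to set against the background. The adjoining type IV collagen genes thus differed, with a shared peak at COL4A1 and an SA2-only peak at COL4A2. The median length of these genes was 36.3 kb, against 27.5 kb for all protein-coding genes, and long genes have more room for a peak. Of 24 genes of the AP-1 factors and the Hippo pathway, 7 had an SA1-only peak, which were JUN, FOSB, FOSL2, TEAD1, WWTR1 with 3 peaks, AXL and AJUBA. A shared peak was found at JUNB, JUND and ANKRD1, and an SA2-only peak at AJUBA alone.

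Of 39 HOX genes, which set position along the body axis, 15 had a shared peak, 6 an SA1-only peak and none an SA2-only peak. These genes are short, with a median of 4.22 kb, and lie in clusters, so that neighbours count the same peak. Among all protein-coding genes the shares were 15.0%, 14.0% and 3.58%. With 39 HOX genes, the SA2-only count is too small to set against the last of these. The 6 with an SA1-only peak were HOXB3, HOXB5, HOXB6, HOXD3, HOXD8 and HOXD9. Of 21 pigment epithelium genes, 4 had a shared peak (BEST1, MITF, RGR and RLBP1) and 5 an SA1-only peak (DCT, KRT8, KRT18, TTR and TYRP1). Of 23 ribosomal protein genes none had a shared peak, RPL3 had an SA1-only and RPS3 an SA2-only peak. In the SA2-only class no list had more than 2 genes with a peak.

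The letters of the CTCF core were common in all classes. They were found in 39.9% (38.6 to 41.2) of shared, 34.6% (33.4 to 35.9) of SA1-only and 39.1% (36.2 to 42.1) of SA2-only windows, against 0.751% of all 300-bp windows. SA2-only windows exceeded SA1-only windows by 4.49 points (1.28 to 7.76), and shared minus SA2-only was 0.813 points (-2.47 to 4.03). Within GC bins the difference between the unshared classes was -5.80, 4.15, -3.70 and 7.18 points from the lowest bin to the highest, and each interval included 0. Peaks with RAD21 held the core more often than peaks without it: 41.1% against 29.1% of shared, 37.2% against 29.4% of SA1-only and 42.4% against 28.4% of SA2-only windows.

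The other motifs were searched in the same windows. GGGCGGG was found in 11.6% (9.76 to 13.7) of SA2-only, 6.05% of shared and 3.13% of SA1-only windows, and in 1.50% of all windows. Within the bins from 40 to 50% and from 50 to 60% GC, SA2-only windows still exceeded SA1-only windows, by 3.66 points (1.49 to 7.04) and 5.24 points (1.49 to 9.58), while below 40% and at 60% or more the intervals included 0. The ETS letters CCGGAAG were in 2.43% of SA2-only, 2.28% of shared and 1.31% of SA1-only windows (0.696% of all), and the NRF1 letters GCGCANGCG in 1.07%, 0.594% and 0.225% (0.0921% of all). The NRF1 letters stood in 11 of 1028 SA2-only windows. Neither these motifs nor those that follow were counted within GC bins. The AP-1 letters TGANTCA were in 9.24% of SA2-only, 9.24% of SA1-only and 8.84% of shared windows, against 9.15% of all windows. The TEAD letters ACATTCC and the RUNX letters TGTGGTT differed between the unshared classes by -0.164 points (-1.45 to 1.40) and -0.616 points (-2.1 to 1.1). The YY1 letters AAGATGGC, which overlap 1 spelling of the CTCF core, were in 2.33% of SA2-only, 2.67% of shared and 2.74% of SA1-only windows, against 1.27% of all. The E-box CACGTG was in 4.09%, 4.10% and 3.11%, against 2.76%. All motifs were searched on both strands, and a match is a run of letters, not a bound site.

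**Figure D3:**
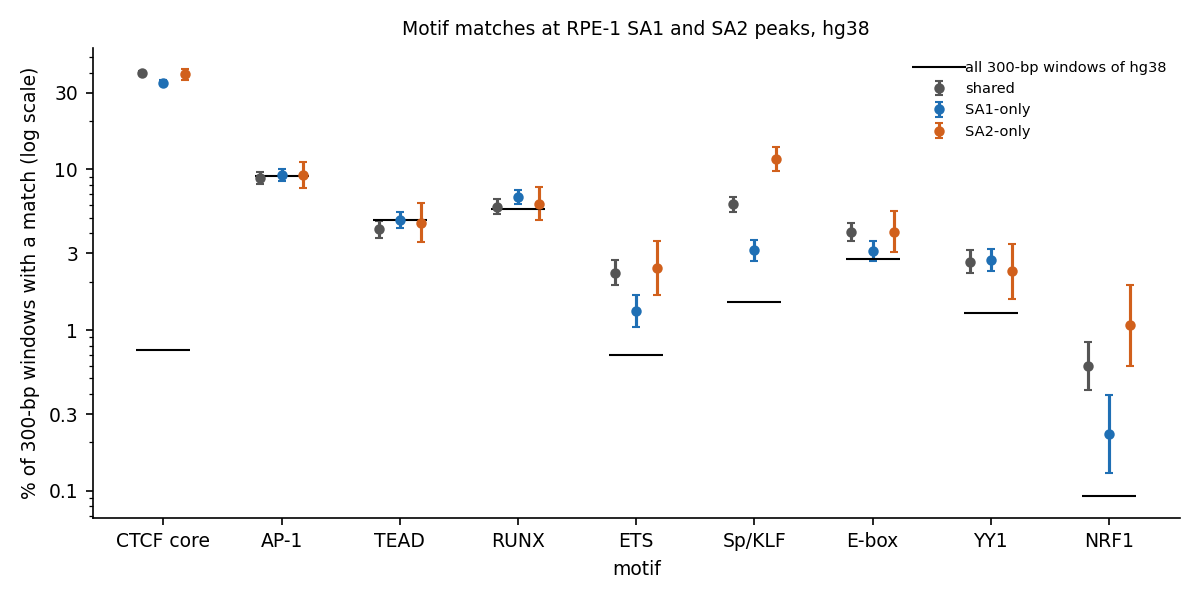
Share of 300-bp windows centred on hg38 peaks that hold each motif (y axis, %, log scale; x axis, motif) for shared (grey), SA1-only (blue) and SA2-only (orange) loci with 95% Wilson intervals, and for all 300-bp windows of hg38 (black lines). The CTCF core stands at 34.6 to 39.9% against 0.751%, the SA2-only point is highest for Sp/KLF at 11.6%, and AP-1, TEAD and RUNX lie close to the genome line.

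Nearly all RPE-1 sites of each class were cohesin sites in CHM13 cells. At least 1 CHM13 list covered 98.7% of shared, 96.0% of SA1-only and 96.4% of SA2-only peaks, and the unshared classes differed by 0.360 points (-0.696 to 1.35). Sites with a peak of 1 subunit in RPE-1 cells mostly had peaks of both in CHM13 cells. This was so for 92.9% (92 to 93.7) of SA1-only and 93.5% (92.4 to 94.5) of SA2-only peaks. The CHM13 lists are longer, with 74116 RAD21 peaks against 16078 in RPE-1 cells.

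The few sites with a peak of a single subunit in each line were more often of the same subunit in both lines on CHM13 v1.0. Of SA1-only peaks, 61 (1.74%, 1.35 to 2.23) had SA1 without SA2 in CHM13 and 19 (0.541%, 0.347 to 0.844) had SA2 without SA1. Of SA2-only peaks, 47 (2.16%, 1.63 to 2.86) had SA2 without SA1 and 7 (0.321%, 0.156 to 0.662) had SA1 without SA2. In the CHM13 lists themselves, 12.7% of SA1 peaks had no SA2 and 26.1% of SA2 peaks had no SA1. Without chromosome X the SA2-only pair was 32 (1.57%) and 7 (0.344%), and the SA1-only pair 60 and 19. On hg38 the SA2-only pair was 18 (1.75%, 1.11 to 2.75) and 6 (0.584%, 0.268 to 1.27), whose intervals overlap, and without chromosome X 12 and 6, while the SA1-only pair was 52 and 26. The SA1 and SA2 antibodies were the same in both lines, so that an effect of the antibody and one of the subunit cannot be told apart here.

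Unshared peaks were not spread alike over the chromosomes. On the 22 autosomes of CHM13 v1.0, SA1-only peaks were 26.1 to 39.0% of SA1 peaks and SA2-only peaks 15.4 to 34.2% of SA2 peaks. SA1-only peaks outnumbered SA2-only peaks on 19 of 23 chromosomes, the exceptions being 16, 19, 22 and X. On hg38, with its shorter SA2 list, they did so on 23 of 23, and the ratios of SA2-only to SA1-only on the 4 exceptions were 0.310, 0.671, 0.617 and 0.512, against 1.16, 1.39, 1.26 and 1.57 on CHM13 v1.0. Chromosome 5 had the lowest ratio, with 77 SA2-only to 226 SA1-only peaks (0.341), and chromosome 19 the highest among autosomes, with 82 to 59 (1.39). The ratio rose with the GC content of the chromosome across the 22 autosomes, with a Spearman coefficient of 0.90 and a Pearson coefficient of 0.94, which is a description over chromosomes that share libraries. Chromosome X departed from this order, with a GC content of 39.5% and a ratio of 1.57. Near chromosome ends, 9.25% (7.62 to 11.2) of SA2-only, 6.81% of shared and 5.19% (4.63 to 5.82) of SA1-only peaks on hg38 were centred within 5 Mb of an end, where 7.59% of chromosome length lies. Within 1 Mb the shares were 1.57% (0.972 to 2.54), 1.10% and 1.07% (0.825 to 1.38).

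**Figure D4:**
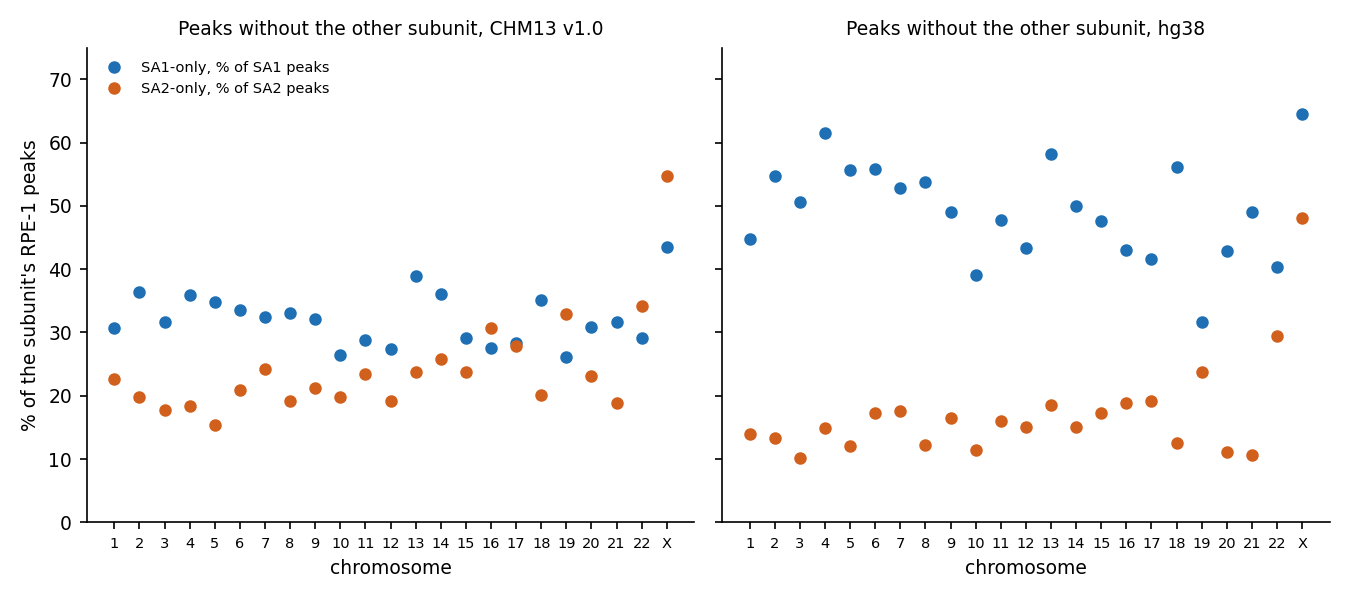
SA1-only peaks as a share of RPE-1 SA1 peaks (blue) and SA2-only peaks as a share of SA2 peaks (orange), in % on the y axis, for each chromosome on the x axis, on CHM13 v1.0 (left) and hg38 (right). On CHM13 v1.0 the SA2-only points of the autosomes lie between 15.4 and 34.2%, and the point of X stands at 54.8%.

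Chromosome X carried the densest SA2-only sites. Of its 261 SA2 peaks 143 (54.8%) had no SA1 peak, against a median of 22% over the autosomes, and 91 of its 209 SA1 peaks (43.5%) had no SA2 peak. Of the 143, 72 lay in 3 runs, defined after the values were seen as at least 5 peaks of a class with gaps of at most 20 kb. No run was found on an autosome or for SA1-only peaks on either build. Outside the runs 71 of 184 SA2 peaks of X (38.6%, 31.9 to 45.8) were SA2-only. In fixed windows of 500 kb, the fullest held 42, 25 and 8 SA2-only peaks, and the fullest for SA1-only peaks held 6.

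On hg38 the 3 runs overlapped named genes, and they were paired with those of CHM13 v1.0 by their order along the chromosome, without converting coordinates. The first lay in NBDY, which codes for a small protein of the mRNA decapping machinery. The next lay in DANT1 and DANT2, noncoding transcripts over the tandem array DXZ4. The last overlapped FIRRE, a long noncoding RNA gene with internal repeats, and ran past its annotated start, so that the bases shown as FIRRE 2 and FIRRE 3 lie outside the gene. DXZ4 and FIRRE are known for long-range contacts of the inactive X chromosome and for CTCF at their repeats. Bases of these peaks are shown to set the repeated ones beside those that do not repeat, on the plus strand of hg38 with the CTCF core and GGGCGGG in capitals.
DANT1 array word, chrX:115856127-115856166: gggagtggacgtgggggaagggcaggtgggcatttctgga
X run FIRRE 1, chrX:131746575-131746634: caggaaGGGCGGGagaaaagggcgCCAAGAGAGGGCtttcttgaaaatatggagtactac
X run FIRRE 2, chrX:131830922-131830981: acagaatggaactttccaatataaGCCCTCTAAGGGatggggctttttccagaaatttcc
X run FIRRE 3, chrX:131841528-131841587: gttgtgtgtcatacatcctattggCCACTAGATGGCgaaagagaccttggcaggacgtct
X run NBDY 1, chrX:56764575-56764634: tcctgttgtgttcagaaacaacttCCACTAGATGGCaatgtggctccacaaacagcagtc
X run NBDY 2, chrX:56772912-56772971: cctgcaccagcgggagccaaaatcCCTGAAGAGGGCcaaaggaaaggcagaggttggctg
X run NBDY 3, chrX:56778314-56778373: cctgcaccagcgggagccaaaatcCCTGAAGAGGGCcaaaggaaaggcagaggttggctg
The word of 40 bases from DANT1 was chosen as the one found in the most peaks of that run. It stood unchanged in 12 of its 14 SA2 peaks on hg38, in 12 copies with a median spacing of 2990 bp. The NBDY 2 and NBDY 3 lines are the same 60 bases, 5.4 kb apart. In the FIRRE run the most common such word was in 2 of 21 peaks. Within the 300 bp around the peak centres, no peak of the DANT1 run held the core letters as spelled here, 3 of the 21 FIRRE peaks did and 1 of the 7 NBDY peaks did, while the other NBDY matches shown lay farther out in their peaks.

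The DXZ4 run was the longest on CHM13 v1.0 and the only run of the 3 with SA1 peaks in RPE-1 cells. Over 170 kb, RPE-1 cells had 46 SA2 peaks, 50 RAD21 peaks and 5 SA1 peaks, and CHM13 cells had 58 SA2, 58 RAD21 and 40 SA1 peaks. The spacing of the RPE-1 SA2 peaks had a median of 2980 bp, and 33 of 45 spacings were between 2.9 and 3.1 kb, the length of the repeat unit. Of the 46 SA2 peaks, 43 overlapped RAD21, 5 overlapped RPE-1 SA1 (10.9%), 46 overlapped CHM13 SA2 and 35 overlapped CHM13 SA1. The 5 SA1 peaks lay between 26.8 and 137 kb from the start of the run. On hg38, where the run spans 38.5 kb, 5 of 14 SA2 peaks had SA1 and all 14 had RAD21. The assembly holds the array of CHM13 cells, and the number of repeat units in RPE-1 cells was not measured, so reads of 1 unit may be placed on another.

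FIRRE had SA2 peaks without SA1 peaks in RPE-1 cells over most of its length. On CHM13 v1.0 the run held 24 SA2 peaks over 126 kb, and 0 of them overlapped an SA1 peak of RPE-1, which allows a share of up to 12.5% (3 counts of the total, for counting error only, with neighbouring peaks taken as independent). RAD21 was at 14 of the 24. In CHM13 cells all 24 were covered by SA1 and all 24 by SA2. On hg38 the run had 21 SA2 peaks, none with RPE-1 SA1 and 13 with RAD21, and the annotated gene as a whole held 19 SA2-only and 1 shared peak.

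The run in NBDY had SA2 peaks without SA1 peaks in RPE-1 cells, and likewise in CHM13 cells at 5 of its 7 peaks. Its 7 SA2 peaks spanned 20.5 kb on CHM13 v1.0, with a median width of 503 bp, and 0 of them overlapped RPE-1 SA1, which allows a share of up to 42.9%. RAD21 was at 5 of the 7. In CHM13 cells all 7 were covered by SA2 and 2 by SA1. The annotated gene on hg38 held 7 RPE-1 SA2 and 0 SA1 peaks, and in CHM13 cells 9 SA2 and 5 SA1 peaks. With 5 kb upstream it also had 1 RPE-1 SA1-only peak. The widths of the run peaks, with medians of 568, 416 and 503 bp, lay above the 378 bp of the SA2-only class as a whole.

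**Figure D5:**
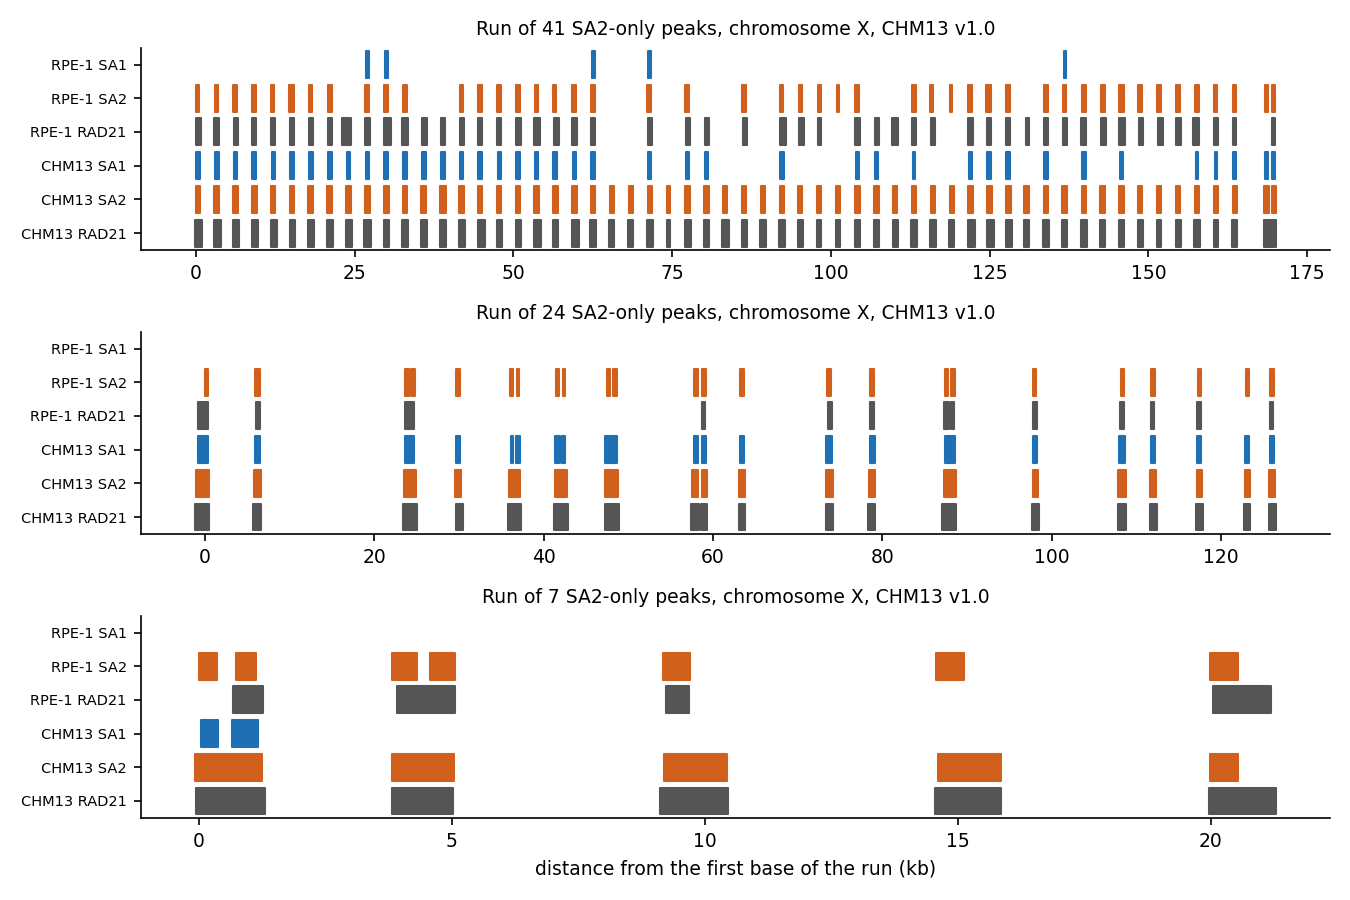
Peaks of the 6 lists in the 3 runs of SA2-only peaks on chromosome X of CHM13 v1.0, by distance from the first base of the run (x axis, kb), with 1 row per list (y axis) in blue for SA1, orange for SA2 and grey for RAD21. The top panel is the run with 46 RPE-1 SA2 and 5 SA1 peaks at regular spacing, the middle panel the run with 24 SA2 and 0 SA1 peaks, and the bottom panel the run with 7 SA2 and 0 SA1 peaks.

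Without the 3 runs, the share of SA2 peaks with SA1 was 77.8%, the difference in RAD21 overlap 5.55 points, the difference at gene starts 4.04 points and the difference in the CTCF core 5.54 points. Without the whole of chromosome X the share of SA2 peaks with SA1 was 78.2%, the difference in RAD21 overlap 5.84 points, the difference at gene starts 4.22 points and the difference in the CTCF core 5.85 points.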

How the data were processed

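The authors deposited peak lists as positions (chromosome, start and end, other than which no score, height or p-value is given), 1 list per antibody, line and build, 12 in all. Per the study's methods, reads were aligned with BWA, filtered with SAMtools, peaks were called with MACS2, then merged over replicates, and loci found in fewer than 2 replicates were discarded, so each list pools replicates. The alignment is described for CHM13 v1.0, and hg38 is named in the submitters' processing notes. An RPE-1 replicate with few reads was discarded by the authors. Sonication differed between the lines (Bioruptor for RPE-1, Covaris for CHM13), as did the RAD21 antibody. The lists hold no read counts, and read totals, reads and coverage tracks of the libraries were not used in the values. Depth bears on which peaks are called, and so on every list and class, but no value was adjusted for it. Intervals cover counting error only.

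From these lists, overlaps of at least 1 bp, widths, gaps and shares were computed in Python 3.11.15 with NumPy 2.4.6 and pandas 2.3.3, without a test, since the lists hold no value per library. Genes came from GENCODE 44, bases from hg38, and motifs and GC content were read in windows of 300 bp around peak centres. Positions are 1-based. CHM13 v1.0 gave the numbers and hg38 the genes and bases. The functions were tested on simulated intervals. Genes were named by rule: in each class the 8 with the widest peak within 1 kb of a start, the 8 with the most peaks in the gene or 5 kb upstream, and members of 6 lists. The members, lists and comparisons were chosen with earlier results of these data known. Coordinates were not converted between builds. Some members of the gene lists are not reported here.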

Additional observations from a re-analysis of the deposited data

How the results depend on the processing

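No paired analysis was possible because each list pools its replicates, and for the same reason no replicate could be left out. The 7 values that compare the classes were recomputed under alternatives, 75 values in all, of which 55 stayed within the interval of the reported value. On hg38 the share of SA1 peaks shared with SA2 was 50.2% and that of SA2 peaks shared with SA1 84.0%, the median width difference was -40.0 bp and the RAD21 difference 9.20 points. With only peaks that overlap RPE-1 RAD21 the shares were 73.8% and 80.6% and the width difference -45.0 bp. Leaving out the 3 runs on chromosome X, also added after seeing the data, moved none of the 7 out of its interval. Without chromosome X, an alternative added after seeing the data, the share of SA2 peaks shared with SA1 was 78.2%. At gene starts the difference was 6.34 points within 5 kb and 6.31 points with all annotated genes. In bins of GC content on hg38, also added after seeing the data, the RAD21 difference reversed to -11.2, -6.65, -2.54 and -1.89 points from the lowest bin to the highest, the difference at gene starts was 0.0896, 0.166, -0.538 and 0.606 points, and the CTCF core difference turned to -5.80 points below 40% and -3.70 points from 50 to 60%. The cause was not tested. Requiring 50% overlap or keeping peaks of at least 300 bp moved none of the values out of its interval. Allowing gaps of 200 bp could change nothing, since no unshared peak on either build had a peak of the other subunit so near. Keeping chromosomes 1 to 22 and X could not change values read on CHM13 v1.0, whose lists hold no other sequence. The values fixed for these reasons are among the 55. In lists without peak heights, and with read totals not used, a missing peak cannot be told from a peak below the calling threshold.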
